A study of Mus musculus and Homo sapiens with 10 samples.

Results

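The genes described here are 9 well-known human targets of the transcription factor p53: MDM2, CDKN1A, CCNG1, BTG2, RRM2B, SESN1, BBC3, FAS and ZMAT3. They were picked by name from 22060 gene symbols in the human RNA table, with earlier results of these data known. For each gene the RefSeq entry with the highest level was used. The genes were measured in H1, an established human embryonic stem (ES) cell line, at passage 69. Of the 10 samples of the study, which asks how L1 retrotransposons are kept silent in ES cells, 2 are used here. The control library came from H1 cells transduced with a lentivirus carrying an empty hairpin vector (LV sh-empty). The knockdown library came from H1 cells transduced with hairpins against the DNA methyltransferases (LV sh-DNMTs). The knockdown library is also labelled DNMTs-TKD, where TKD may stand for triple knockdown. The labels do not say how many hairpins were used or how long after transduction the cells were taken. Cytoplasmic RNA selected for poly(A) was sequenced in each. There was 1 library per group, so no difference below has a replicate check and no test was made.

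p53 is kept low in unstressed cells by MDM2, a ubiquitin ligase that p53 itself switches on, so that the protein limits its own level. When DNA is damaged or replication is disturbed, p53 builds up and raises genes that stop the cell cycle, supply nucleotides for repair, restrain growth signals or start apoptosis. Human ES cells are known for a short G1 phase and a ready apoptotic response to DNA damage.

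Levels are in RPKM, reads per kilobase of the entry, scaled to the total of the library, which allows levels of different genes to be compared. The control library held 100921087 reads and the knockdown library 92478094. DNMT1, the enzyme that maintains methylation, stood at 24.5 RPKM in control cells and 6.95 after knockdown, and the de novo enzyme DNMT3B stood at 181 and 75.9. DNMT3A, the other de novo enzyme, stood at 17.9 and 12.2, which is short of a 1.5-fold difference. All 10 markers of pluripotent cells passed the level minimum used below. Of these, POU5F1, named after its values were seen, stood at 921 and 893 RPKM, NANOG at 17.3 and 32.6, SOX2 at 107 and 66.4, and TDGF1 at 418 and 144. L1TD1 and NANOG were past 1.5-fold higher (20%, beside 13.0% of all genes), and TDGF1, PRDM14 and SOX2 past 1.5-fold lower (30%, beside 13.0%). The median log2 difference of the 10 markers was -0.29. Summed over 8 markers each, mesoderm genes gave 2.23 RPKM in control cells and 0.963 after knockdown, and endoderm genes 0.616 and 2.47. The only mesoderm gene past the level minimum was TBX6 (1.78 and 0.319), and the only endoderm gene was FOXA2 (0.00816 and 1.24). Below the minimum, mesoderm genes differed in both directions. Trophectoderm genes gave 14.4 and 3.68, mostly from KRT7 (11.4 and 2.84), and neuroectoderm genes 39.0 and 53.1, mostly from NES (33.1 and 50.03). The neuroectoderm gene MAP2, at 4.49 and 1.51, was past 1.5-fold lower. The median log2 difference of the 3 neuroectoderm genes past the level minimum was -0.28. The 10 fibroblast genes summed to 185 and 214 RPKM, with THY1 at 35.2 and 109. VIM (63.2 and 31.8) and FN1 (12.3 and 4.89) were past 1.5-fold lower, and the median of the 6 tested was -0.40. LUM and DCN were at 0 in the control and had 1 read each in the knockdown. HAND1 and CGA were at 0 in both libraries. The part that such shifts have in the differences below was not tested.

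Of the 9 p53 targets, 8 had a mean RPKM of at least 0.5, the level minimum used throughout, and FAS did not. All 8 were lower in the DNMT knockdown, and 6 were past 1.5-fold on the scale of RPKM + 0.5: RRM2B, BTG2, CDKN1A, CCNG1, SESN1 and BBC3. None was past 1.5-fold higher. Of all 13043 genes tested, 1697 were past 1.5-fold lower (13.0%) and 1698 past 1.5-fold higher (13.0%), and 48.9% had a log2 difference below 0. The median log2 difference of the 8 targets was -1.03, beside 0.01 for all genes tested. Because the targets were chosen with earlier results of these data known, these values describe them and test nothing. At 2-fold the targets lower were RRM2B, BTG2, CDKN1A and CCNG1, where 4.97% of all genes were lower and 4.37% higher. In bulk RNA, fewer cells of a type and less RNA per cell cannot be told apart.

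**Figure D1:**
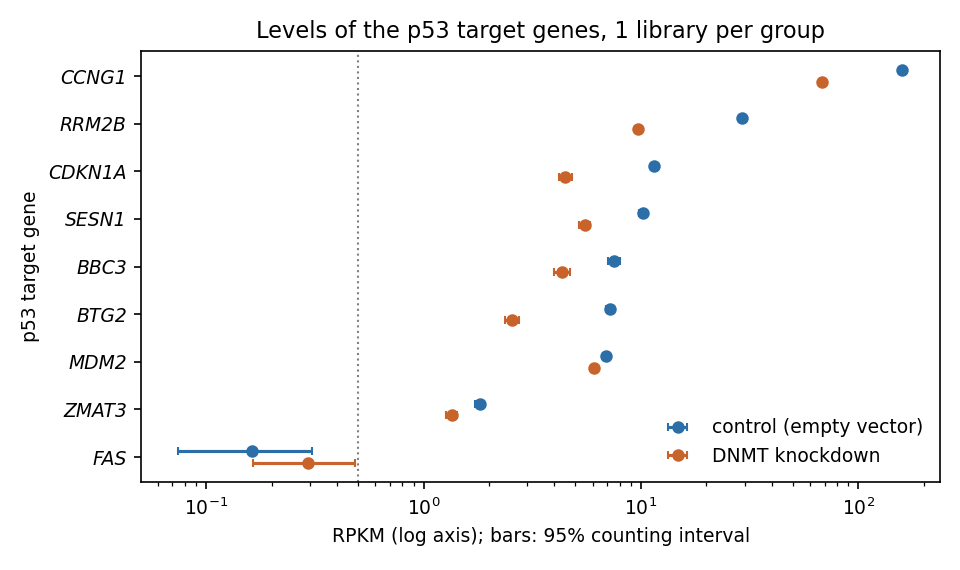
RPKM of each p53 target gene in the control and the DNMT knockdown library of H1 cells, on a log axis, with 1 library per group. Bars are 95% Poisson intervals that cover counting error only, and the dotted line is the level minimum of 0.5. FAS lies below it, and its bars are too wide, since its reads are understated; for the other genes the bars of the libraries do not overlap.

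Of the 8 targets tested, the feedback gene MDM2 differed least. MDM2 (entry NM_002392) stood at 6.89 RPKM in control cells and 6.09 after knockdown, from 5127 and 4148 reads. This is 88.3% of the control level, with a 95% interval of 84.7 to 92.0% that covers counting error only, as do all intervals below. Its log2 difference was -0.17, and 35.2% of all genes tested had a lower one, so MDM2 lay well inside the spread of all genes. MDM4, the relative of MDM2 that holds back p53 at its activation domain, stood at 3.28 and 3.25 RPKM, with an interval of 94.5 to 104% of the control.

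Cyclin G1, encoded by CCNG1 (NM_004060), guides a phosphatase to MDM2 and is the most abundant of these transcripts. It stood at 159 RPKM in control cells, where 1.69% of all genes tested were higher, and at 68.2 after knockdown. The knockdown level was 42.9% of the control (41.8 to 44.0%), with a log2 difference of -1.22. Its relative CCNG2, which is not a standard p53 target, went the same way at far lower levels, with 3.87 and 2.15 RPKM, or 55.6% (51.6 to 59.8%).

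CDKN1A and BTG2, which arrest the cell cycle, were both past 2-fold lower in the knockdown. CDKN1A (NM_000389) encodes p21, the inhibitor of cyclin-dependent kinases through which p53 holds cells in G1. It stood at 11.5 RPKM in control cells and 4.49 after knockdown, from 2535 and 904 reads, which is 38.9% of the control (36.0 to 42.0%) and a log2 difference of -1.27. BTG2 (NM_006763), an antiproliferative protein that promotes the shortening of poly(A) tails, stood at 7.20 and 2.56 RPKM, from 1975 and 643 reads. This is 35.5% of the control (32.5 to 38.9%), with a log2 difference of -1.33. Only 2.67% of all genes tested had a lower difference than CDKN1A, and 2.32% than BTG2.

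The kin of p21 in the CIP/KIP family were lower too. CDKN1B, which encodes p27, stood at 13.4 and 6.74 RPKM, 50.3% of the control (47.3 to 53.5%). CDKN1C, which encodes p57, stood at 10.6 RPKM in control cells and 0.597 after knockdown, 5.63% (4.14 to 7.51%). In the control the 3 genes lay within a narrow range of 10.6 to 13.4 RPKM. In the knockdown they were spread from 0.597 to 6.74, and CDKN1A was 7.53 times as abundant as CDKN1C, against 1.09 times in the control. Of the other genes named as inhibitors of cyclin-dependent kinases, CDKN2D stood at 1.13 and 2.39 RPKM, past 1.5-fold higher. CDKN3, at 12.3 and 16.2, was not. CDKN2A, CDKN2B and CDKN2C were below the level minimum.

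The relatives of BTG2 did not move as a group. BTG1 stood at 7.64 RPKM in control cells and 4.06 after knockdown, past 1.5-fold lower. BTG3, at 8.81 and 16.5, and TOB2, at 10.6 and 17.0, were past 1.5-fold higher. TOB1 stood at 10.5 and 7.07, short of 1.5-fold on the scale used, and BTG4 was below the level minimum. BTG2 was as abundant as BTG3 to within a ratio of 0.817 in the control, and the ratio was 0.155 in the knockdown.

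RRM2B differed most of all the targets. It encodes p53R2, the small subunit of ribonucleotide reductase that supplies deoxynucleotides for DNA repair and for mitochondrial DNA outside S phase. RRM2B (NM_015713) stood at 29.0 RPKM in control cells and 9.73 after knockdown, from 14458 and 4437 reads. The knockdown level was 33.5% of the control (32.4 to 34.6%), with a log2 difference of -1.53, and it ranked 196 from the lowest of the 13043 genes tested. RRM2, the small subunit that serves S phase, differed in the opposite direction, at 14.2 RPKM in control cells and 43.2 after knockdown, a ratio of 3.04 (2.94 to 3.15). The large subunit RRM1, which pairs with either of them, stood at 28.3 and 29.4 RPKM, a ratio of 1.04. Its interval of 0.996 to 1.08 is too wide if its reads are understated. The order of the small subunits therefore turned over: RRM2B was 2.04 times as abundant as RRM2 in the control and 0.225 times in the knockdown. These ratios are taken within a library and do not depend on how libraries are scaled.

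**Figure D2:**
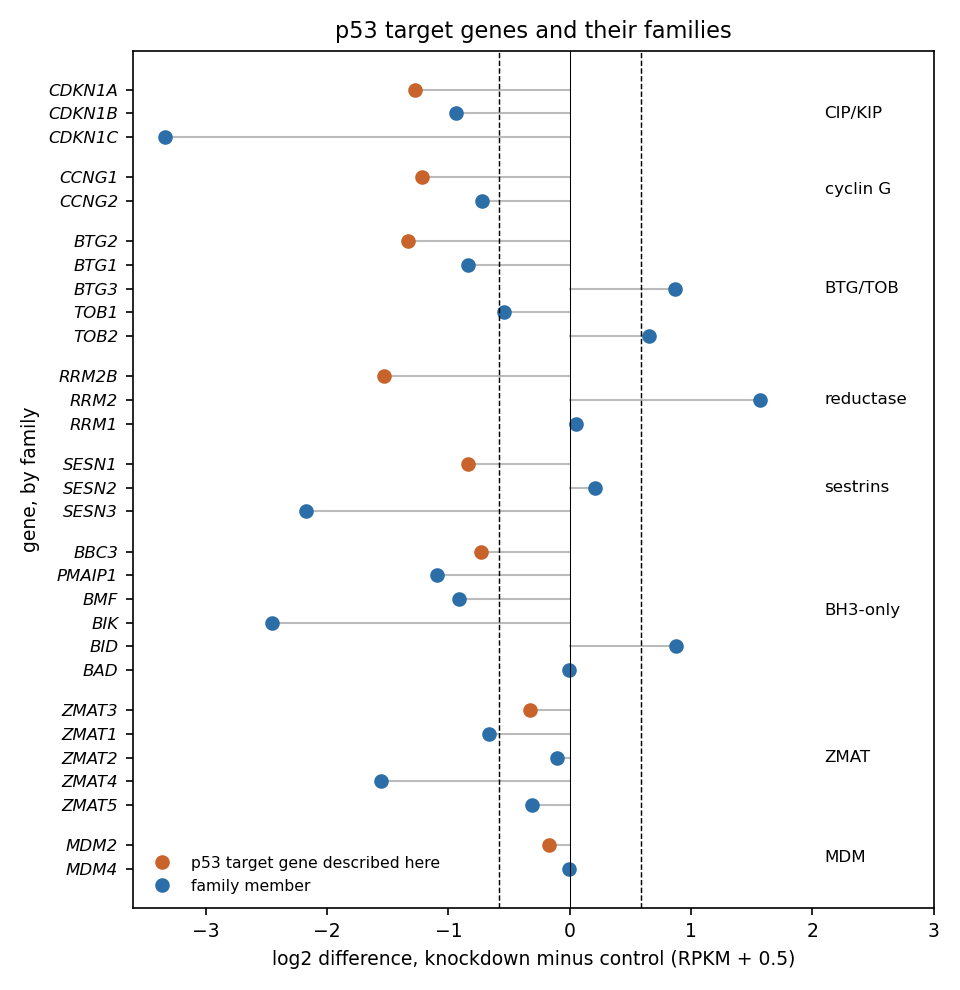
Log2 difference between DNMT knockdown and control, on the scale of RPKM + 0.5, of the tested p53 target genes (orange) and members of their families (blue), with 1 library per group. Dashed lines mark 1.5-fold; within the reductase, RRM2B is at -1.53 and RRM2 at 1.57.

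SESN1 (NM_001199933) encodes sestrin 1, a stress protein that restrains the growth kinase complex mTORC1. It stood at 10.2 RPKM in control cells and 5.50 after knockdown, from 2783 and 1373 reads, which is 53.8% of the control (50.4 to 57.5%) and a log2 difference of -0.84. SESN3, a sestrin known as a target of FOXO factors, stood at 9.73 and 1.77 RPKM, 18.2% of the control (16.1 to 20.5%). SESN2, which is a p53 target as well and is also raised by amino acid and ER stress, stood at 7.90 and 9.21 RPKM, with a log2 difference of 0.21 that is short of 1.5-fold. The sestrins lay between 7.90 and 10.2 RPKM in control cells, and SESN2 was the most abundant after knockdown.

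Of the genes for apoptosis, BBC3 was lower and FAS was below the level minimum. BBC3 (NM_001127242) encodes PUMA, a BH3-only protein that frees BAX and BAK1 to permeabilise mitochondria. It stood at 7.53 RPKM in control cells and 4.33 after knockdown, from 1024 and 540 reads, or 57.5% of the control (51.8 to 63.9%), with a log2 difference of -0.73. PMAIP1, which encodes NOXA, the other classical BH3-only target of p53, stood far higher, at 143 and 66.6 RPKM, or 46.7% (45.7 to 47.7%). Of the BH3-only genes not best known as p53 targets, BMF stood at 10.6 and 5.39 RPKM and BIK at 3.59 and 0.247, both past 1.5-fold lower. BID stood at 4.06 and 7.86, past 1.5-fold higher, and BAD at 8.39 and 8.36. Of the effectors, BAX stood at 54.9 and 55.8 RPKM, and BAK1 at 10.2 and 14.4, short of 1.5-fold. The survival genes MCL1, at 65.1 and 58.7, and BCL2L1, at 34.2 and 26.2, were short of 1.5-fold as well. BCL2, BCL2L11 and HRK were below the level minimum.

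FAS (NM_000043), the death receptor of the extrinsic route, stood at 0.162 RPKM in control cells and 0.294 after knockdown, from 9 and 15 reads at the shortest entry length that fits. The ratio of 1.82 has an interval of 0.746 to 4.71, which is too wide because that length understates the reads. The entry NM_152872, with 41 and 70 reads, gave 186% of the control (125 to 281%), and NM_152871, with 31 and 43 reads, gave 151% (93.2 to 248%). The reads of these entries overlap, so they are not separate measurements. On the scale of RPKM + 0.5 the log2 difference was 0.26, short of 1.5-fold. Its ligand gene FASLG was at 0 in both libraries. Downstream of the receptor, the adaptor FADD stood at 8.36 and 8.18 RPKM, the initiator caspase gene CASP8 at 0.462 and 1.96, past 1.5-fold higher, and CFLAR, which blocks that caspase, at 1.46 and 0.774, past 1.5-fold lower.

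ZMAT3 (NM_022470), a zinc finger protein that binds RNA and controls splicing downstream of p53, was the least abundant target above the level minimum. It stood at 1.81 RPKM in control cells and 1.35 after knockdown, from 1644 and 1120 reads. This is 74.3% of the control (68.8 to 80.3%), and its log2 difference of -0.32 is short of 1.5-fold. Of the genes that share its name, ZMAT4, at 8.99 and 2.72 RPKM, and ZMAT1, at 1.33 and 0.657, were past 1.5-fold lower. ZMAT2, at 32.5 and 30.2, and ZMAT5, at 6.11 and 4.84, were not.

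The order of the targets by level differed between the libraries. In the control it was CCNG1, RRM2B, CDKN1A, SESN1, BBC3, BTG2, MDM2, ZMAT3 and FAS. Within it, the intervals of BBC3 (7.08 to 8.01 RPKM) and BTG2 (6.89 to 7.52) overlapped, and MDM2 (6.71 to 7.09) overlapped with both of them. In the knockdown MDM2 was in place 3, and SESN1, CDKN1A, BBC3 and BTG2 followed it. There the intervals of CDKN1A (4.21 to 4.80) and BBC3 (3.98 to 4.72) overlapped. Summed over the 8 targets tested, the level was 233 RPKM in control cells and 102 after knockdown, and 74.3 and 34.1 without CCNG1.

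For 7 of the 9 genes the table lists more than 1 entry. Entries of a gene share most of their exons and reads, so they show how far the choice of entry matters, not a replicate. The share of control ranged from 33.5 to 33.8% over 3 entries of RRM2B, from 53.8 to 55.6% over 3 of SESN1, and from 55.9 to 57.5% over 4 of BBC3. It was 38.9 and 39.0% for the 2 entries of CDKN1A, and 42.9% for both of CCNG1. For the 2 entries of ZMAT3 it was 74.3 and 74.5%. The choice of entry moved FAS most, from 151 to 186% over 3 entries. Another 2 entries under BBC3, NR_036158 and NR_036159, were at 0 in both libraries. Whether reads were counted by strand is not given in the sources read here, so those from antisense transcripts cannot be separated.

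**Figure D3:**
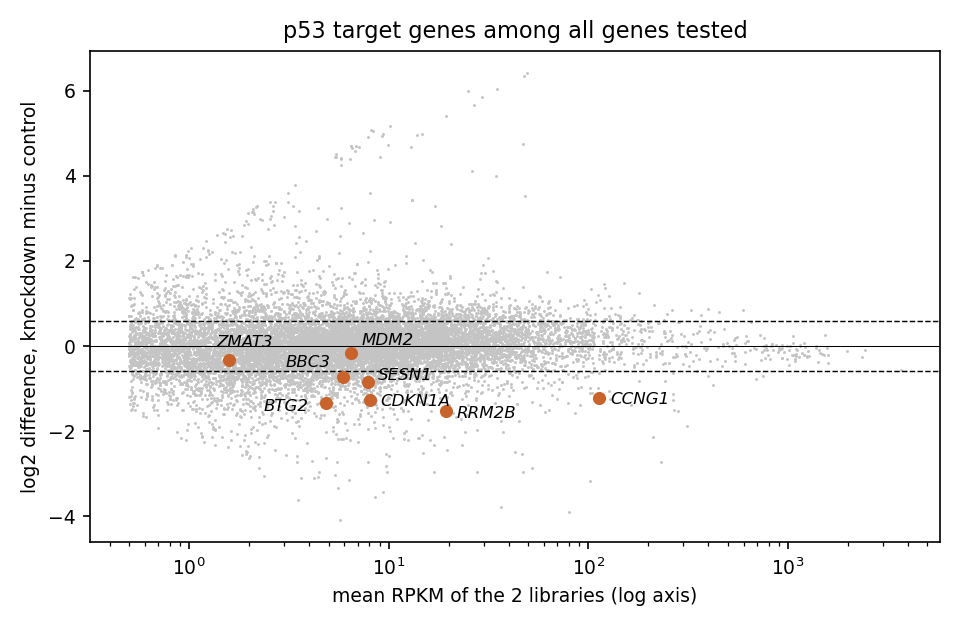
Log2 difference between DNMT knockdown and control (scale of RPKM + 0.5) against the mean RPKM of the 2 libraries, on a log axis, for all 13043 genes tested (grey) and the 8 tested p53 targets (orange). Dashed lines mark 1.5-fold; RRM2B, BTG2, CDKN1A, CCNG1, SESN1 and BBC3 lie below the lower line, while MDM2 and ZMAT3 lie between the lines.

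A wider list held 40 other p53 targets. Of these, 38 were tested, 6 were past 1.5-fold lower (15.8%, beside 13.0% of all genes) and 3 past 1.5-fold higher (7.89%, beside 13.0%). The median log2 difference was -0.04, and 20 of the 38 were below 0. With a pseudocount of 0.1 or with upper quartile scaling, 9 were lower (23.7%, beside 15.9% and 14.8% of all genes). The largest decreases were in DDB2, a damage sensor of nucleotide excision repair, at 20.2 and 5.78 RPKM, and in TP53INP1, a stress protein that promotes autophagy and cell death, at 5.23 and 2.05. PMAIP1, given above, and the decoy receptor gene TNFRSF10C, at 2.26 and 1.00, followed. The 3 higher were TP53I3, an oxidoreductase, at 7.70 and 15.7 RPKM, the death receptor gene TNFRSF10A, at 2.06 and 3.64, and the polo-like kinase gene PLK2, at 4.29 and 7.18. TIGAR, a regulator of glycolysis, was not counted, since the table lists it by its older symbol C12orf5. It stood at 1.68 and 2.98 RPKM, past 1.5-fold higher, and with it, added after its values were seen, 4 of 39 genes were higher. In addition, SPATA18, at 0.526 and 0.346 RPKM, was below the level minimum.

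Among 22 regulators of p53, 19 were tested, with a median log2 difference of 0.23. Higher past 1.5-fold were 4 (21.1%, beside 13.0% of all genes): TP53BP1, which acts at DNA breaks and binds p53, at 9.53 and 19.7 RPKM, the histone chaperone gene DAXX at 17.2 and 31.6, the kinase gene CHEK2 at 24.2 and 37.4, and the arginine methyltransferase gene PRMT5 at 32.3 and 48.8. With upper quartile scaling the count was 2 (10.5%, beside 11.3% of all genes). It was 3 (15.8%) with a pseudocount of 1, after centring on the median and with the mean over all entries of a gene. In these settings 11.1%, 12.6% and 12.8% of all genes were higher. With no filter on low values it was 5 of 22 (22.7%, beside 8.70%). SIRT1, a deacetylase that acts on p53, was the only tested regulator past 1.5-fold lower (5.26%, beside 13.0% of all genes). It stood at 25.1 and 13.9 RPKM. The 3 regulators below the level minimum were CDKN2A, the locus of p14ARF, which restrains MDM2, at 0.0341 and 0.548 RPKM, and the p53 relatives TP63, at 0.00410 and 0.110, and TP73, at 0.140 and 0.0283. For CDKN2A the ratio was 16.1, with an interval of 5.96 to 61.0.

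Cell cycle genes were looked at because p53, through p21 and the DREAM repressor complex, lowers them. All 32 genes of the list were tested, and 9 were past 1.5-fold higher (28.1%, beside 13.0% of all genes). CDK1, at 66.2 and 39.4 RPKM, was the only one past 1.5-fold lower (3.12%, beside 13.0%). The median log2 difference was 0.32, with 24 of the 32 above 0 and 8 below 0. The 9 do not include the mitotic genes BUB1 and CCNB2 (log2 difference -0.44 each), PLK1 (0.05), CCNB1 (0.09) or AURKB (0.39). These were named after their values were seen and do not stand for all mitotic genes of the list. The largest increases were in the cyclin gene CCNE2, at 0.833 and 2.31 RPKM, and the helicase subunit gene MCM7, at 71.8 and 148. The licensing factor gene CDC6, at 17.2 and 34.3, and CCNE1, at 8.09 and 16.1, followed. These lists are described by counts alone, with 1 library per group. Whether p53, p21 or DREAM had a part in the differences of the cell cycle genes was not tested.

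**Figure D4:**
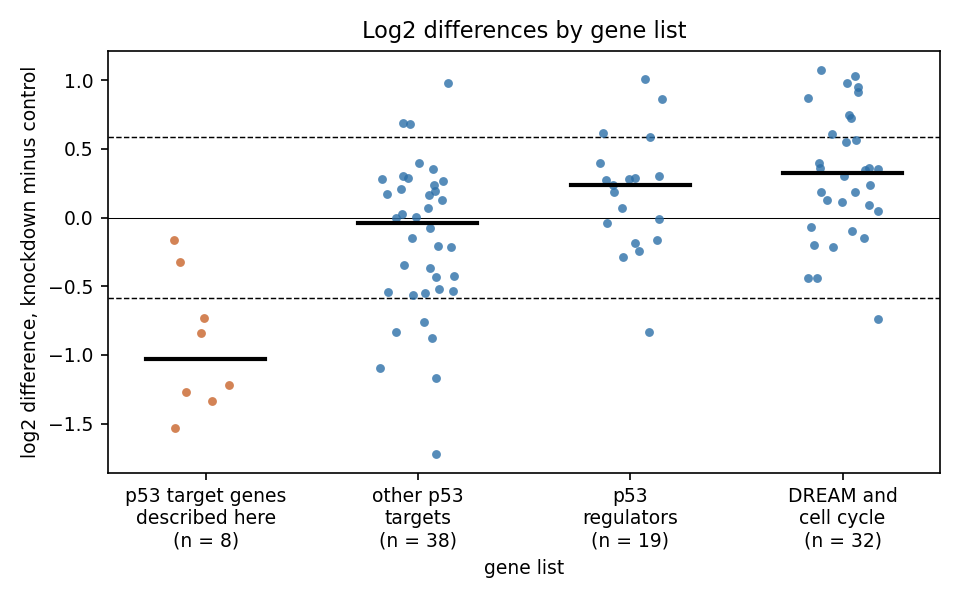
Log2 difference between DNMT knockdown and control (scale of RPKM + 0.5) for each tested gene of 4 lists, with black lines at the list medians and 1 library per group. Dashed lines mark 1.5-fold; the medians are -1.03 for the targets described here, -0.04 for the other targets, 0.23 for the regulators and 0.32 for the cell cycle genes.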

How the data were processed

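The authors deposited RPKM values for every RefSeq entry, with Ensembl identifiers and symbols, and for 9840 single L1 copies. Bowtie 0.12.5 and the build hg19 are named in the submitters' processing notes. The counter, the annotation release and the placing of reads with several positions are not given in the sources read here.

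Columns were matched to samples by name. For each gene the entry highest on average over the 2 libraries was kept. Genes averaging at least 0.5 RPKM were tested for size: log2((knockdown + 0.5)/(control + 0.5)) at or past 1.5-fold. This scale understates the change of low genes. Library totals were found as the numbers that turn the RPKM of 100% of the L1 copies into whole reads within 0.01 reads. Reads of an entry came from the smallest length, up to 120000 bp, that gave whole reads within 0.0005 in both libraries. It can be a fraction of the true length, as for CCNG1 and FAS, and intervals are then too wide. True lengths were not used, so this can hold for other entries as well. Ratios have exact conditional binomial intervals, and levels exact Poisson intervals, at 95% (scipy 1.17.1, Python 3.11.15). Reads are not distinct molecules, so intervals cover counting error only. The steps were tried on simulated reads with counting error only, which cannot show how far replicate libraries would differ. The targets and lists were chosen with earlier results of these data known. Named genes were all targets, their relatives and partners, the DNMT genes, and at most the 4 genes past 1.5-fold that differed most in each direction of any other list, plus the genes behind counts of 5 or fewer. POU5F1, FOS, ATF4, C12orf5 and the mitotic genes BUB1, CCNB2, PLK1, CCNB1 and AURKB fall outside this rule and were added after their values were seen. A gene of the lists is not reported here. Mouse samples were not used here. No human sequence or coordinate was used here.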

Additional observations from a re-analysis of the deposited data

How the results depend on the processing

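The 6 targets called lower were the same genes with a pseudocount of 0.1 or 1, with no filter on low values, with a mean RPKM of at least 1, with the mean over all entries of a gene, after centring on the median and with upper quartile scaling, and none was called higher in any of these. At 2-fold, 4 were called, and of all genes 570 were higher and 648 lower. With no filter, FAS entered at 0.26 and the median of the targets was -0.84. Centring shifted log2 differences by -0.01, and upper quartile scaling shifted those of the 8 tested targets by -0.04 to -0.06. No paired analysis was possible because each human group has 1 library, and for the same reason no library could be left out. Reads were fewest for FAS, where entries differed in whether the counting interval held 100% of the control.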

Other observations

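A pair of neighbouring stress programmes was described in the same way, because some of the targets answer to them as well. Of 12 tested genes of the ATF4 stress response, which is raised by amino acid shortage and by ER stress, 5 were past 1.5-fold higher, beside 13.0% of all genes, and the median log2 difference was 0.56. They were the cystine transporter gene SLC7A11, at 1.60 RPKM in control cells and 6.79 after knockdown, the serine synthesis gene PSAT1, at 78.0 and 177, TRIB3, at 2.12 and 4.91, HERPUD1, at 3.09 and 5.43, and the asparagine synthetase gene ASNS, at 10.0 and 15.4. DDIT4, which restrains mTORC1 as the sestrins do and is known to answer to p53 and to low oxygen too, went the other way, at 92.2 and 12.2 RPKM, 13.2% of the control (12.6 to 13.9%). ATF4 itself stood at 216 and 268 RPKM, and DDIT3, at 0.291 and 0.309, was below the level minimum.

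BTG2 is also known as an immediate early gene, induced within minutes by growth factors. Of 12 tested immediate early genes, MYC, at 11.6 and 28.2 RPKM, and IER3, at 9.51 and 31.0, were past 1.5-fold higher (16.7%, beside 13.0% of all genes). EGR1, at 33.8 and 21.0, and the phosphatase gene DUSP1, at 15.7 and 9.20, were past 1.5-fold lower (16.7%, beside 13.0%). The median log2 difference was -0.05, and FOS, at 132 and 110 RPKM, was short of 1.5-fold.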
